A study of Mus musculus with 10 samples.

Results

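The 10 genes described here encode secreted products that mark Paneth cells: Lyz1, Mmp7, Itln1, Defa17, Defa22, Defa24, Defa30, Ang4, Mptx2 and Clps. They were chosen by name as rows of the count table, and 10 of 10 have a row among the 13932 genes listed. Each gene listed reached at least 10 counts in some library, so a gene below that level has no row. No row carries the symbol Defa30. Its identifier, ENSMUSG00000074444, stands in the table under the symbol Gm15284 and has the name Defa30 in GENCODE M21, so that row was used. The other 9 genes matched by symbol. A filter on low counts kept 12477 genes, and 10 of 10 of these genes passed it.

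Paneth cells sit at the base of the crypts of the small intestine, between the stem cells, and release granules of antimicrobial proteins into the crypt lumen. The granules hold lysozyme, which cuts the bacterial cell wall, and alpha-defensins, short cysteine-rich peptides that damage bacterial membranes. In mice the alpha-defensins are made as inactive precursors that the protease matrilysin cleaves, and Wnt signalling through TCF factors and Sox9 drives Paneth cell formation.

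Bulk RNA was sequenced from the ileum of 10 mice, from live cells without the leukocyte marker CD45 and with the epithelial marker EpCAM, with 400000 sorted cells per mouse. WT mice (n = 5) had the genotype H2-Ab1 fl/fl; Villin:Cre-, and dIEC mice (n = 5) had H2-Ab1 fl/fl; Villin:Cre+, so both groups carried the floxed allele of H2-Ab1, an MHC class II beta chain gene. The villin promoter is active in intestinal epithelium and drives Cre there. The sample labels give Cre for dIEC, whereas the series text gives Villin:Cre- for both groups. Ages were not given in the labels. The sexes were 3 males and 2 females per group. A library stands for 1 mouse and is named here by its group and mouse number. Effects of the deletion and of Cre cannot be told apart.

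Total counts per library ran from 9174101 to 13484363. H2-Ab1 was 208 ± 117 CPM (counts scaled to library size) in WT and 2.14 ± 0.96 CPM in dIEC (SD, n = 5 each); the highest dIEC library was at 3.11 CPM and the lowest WT library at 62.8 CPM. Of the 15 genes of a myeloid list 5 have a row, and they summed to between 14.2 and 25.2 CPM. Itgam, an integrin subunit, led with 7.69 to 17.9 CPM, followed by Cd68 (1.96 to 6.48 CPM) and Cd14 (0.538 to 4.22 CPM). Ptprc, which encodes the sort marker CD45, and Csf1r, a macrophage receptor, were named after their values were seen and reached at most 0.797 and 1.26 CPM. The female libraries WT 10 and dIEC 7 stood apart. They had the lowest mean log2 CPM of the crypt stem list (3.66 and 3.37) and of the proliferation list (3.28 and 2.95) of all 10 libraries. Another female, dIEC 9, had the highest means of both lists, 5.24 and 5.58.

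Lyz1 (ENSMUSG00000069515; mm10 chr10:117287797-117292868, minus strand), the Paneth cell lysozyme, varied widely within each genotype. In WT it measured 635, 327 and 305 CPM in males 2, 4 and 6, and 173 and 50.6 CPM in females 8 and 10. In dIEC it measured 543, 246 and 760 CPM in males 1, 3 and 5, and 91.1 and 374 CPM in females 7 and 9. The WT and dIEC values overlapped over most of their range, and the lowest library of each genotype was female. The group means were 298 ± 219 and 403 ± 260 CPM (SD, n = 5 each). In a bulk sample, fewer Paneth cells and less RNA per Paneth cell cannot be told apart.

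The 4 alpha-defensin genes lie in a cluster of 25 protein-coding alpha-defensin genes on chromosome 8, between 21025545 and 21735471 in GENCODE M21, of which 13 have a row in the table. Their precursors are closely related. The coding sequences of the 4 genes are 282 bases long each, and their ends, which encode the mature peptide, show where they part. The last 120 coding bases are printed 5′ to 3′ from GENCODE M21 transcripts on GRCm38, with capitals at the 45 positions where the 4 genes are not all alike.
Defa17: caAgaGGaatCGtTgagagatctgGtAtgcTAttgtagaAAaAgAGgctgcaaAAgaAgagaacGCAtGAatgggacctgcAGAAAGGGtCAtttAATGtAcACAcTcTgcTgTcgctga
Defa24: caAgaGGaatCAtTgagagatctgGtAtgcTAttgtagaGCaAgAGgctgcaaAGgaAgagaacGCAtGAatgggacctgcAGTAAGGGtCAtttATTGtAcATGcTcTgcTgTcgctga
Defa30: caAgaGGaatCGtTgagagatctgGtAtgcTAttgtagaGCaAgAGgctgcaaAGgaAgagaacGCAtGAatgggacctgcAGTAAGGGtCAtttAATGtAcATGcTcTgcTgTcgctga
Defa22: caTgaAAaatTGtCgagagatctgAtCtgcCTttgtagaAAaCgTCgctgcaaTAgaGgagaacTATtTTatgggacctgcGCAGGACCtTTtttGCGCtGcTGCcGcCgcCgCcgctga
Over the whole coding sequence Defa24 and Defa30 were 98.6% identical and Defa17 and Defa30 97.2%. Defa22 was the distant member, 81.5% to 82.8% identical to the other 3.

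This likeness bears on the counts. Of all 50-base windows in its transcripts, 92.0% for Defa17, 74.9% for Defa22, 52.4% for Defa30 and 28.1% for Defa24 also occur in a transcript of another gene. Defa17 shared most with Defa3 and Defa22 with Defa21. How reads that match several genes were counted is not given in the sources used here. Counts of single alpha-defensin genes are therefore uncertain. Mmp7 and Clps shared 0% of their windows, Itln1 0.972%, Ang4 4.70%, Lyz1 16.1% (with Lyz2) and Mptx2 18.0% (with Mptx1).

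Defa24 (ENSMUSG00000064213; chr8:21734494-21735471) was the highest of the alpha-defensin members. Its WT values were 494, 233 and 223 CPM in males 2, 4 and 6 and 152 and 56.9 CPM in females 8 and 10. Its dIEC values were 332, 180 and 440 CPM in males 1, 3 and 5 and 70.3 and 348 CPM in females 7 and 9. The order of the libraries was close to that of Lyz1, with WT 10 and dIEC 7 lowest and WT 2 and dIEC 5 among the highest. Defa30 (chr8:21134642-21135598) ran from 17.6 CPM in WT 10 to 138 CPM in WT 2, and Defa17 (chr8:21655780-21656735) from 13.4 to 101 CPM in the same libraries.

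Defa22 (ENSMUSG00000074443, chr8:21162277-21163249) ranked the libraries much as Lyz1 did (rho = 0.952), but WT 2 did not stand out. In WT it was 27.9, 24.8 and 27.1 CPM in males 2, 4 and 6 and 11.8 and 4.12 CPM in females 8 and 10. In dIEC it was 53.7, 19.4 and 55.9 CPM in males 1, 3 and 5 and 5.17 and 25.0 CPM in females 7 and 9. Libraries dIEC 1 and dIEC 5 were the highest, whereas WT 2, the highest library for the other 3 alpha-defensins, lay near the other WT males. Defa21, the gene it shares most windows with, had its highest values in the same libraries, 47.7 CPM in dIEC 1 and 61.4 CPM in dIEC 5.

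Mmp7 (ENSMUSG00000018623; chr9:7692090-7699585), the matrilysin that cleaves the precursors, was 31.8, 15.5 and 36.3 CPM in WT males 2, 4 and 6 and 15.6 and 3.94 CPM in WT females 8 and 10. In dIEC it was 19.9, 19.7 and 25.0 CPM in males 1, 3 and 5 and 6.09 and 30.9 CPM in females 7 and 9. Its highest libraries were WT 6, WT 2 and dIEC 9, and the genotypes overlapped. Itln1 (chr1:171518122-171535294), an intelectin that binds microbial sugars, ran from 49.99 CPM in WT 10 to 354 CPM in WT 2. Mptx2 (chr1:173274382-173277777), a mucosal pentraxin, ran from 1.61 to 24.6 CPM in the same libraries, the first from 18 counts.

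Clps (ENSMUSG00000024225; chr17:28558149-28560766) encodes colipase, the cofactor of pancreatic lipase. It was the lowest member per kilobase. In WT it was 15.0, 20.8 and 7.35 CPM in males 2, 4 and 6 and 2.9996 and 1.61 CPM in females 8 and 10. In dIEC it was 7.003, 4.37 and 16.0 CPM in males 1, 3 and 5 and 4.02 and 6.37 CPM in females 7 and 9. Among other transcripts of pancreatic acinar cells, Reg1, a secreted lectin, ran from 3.76 CPM in dIEC 1 to 32.5 CPM in WT 2, and its mean of 10.5 CPM was above that of Clps, 8.56 CPM. Its log2 difference, dIEC minus WT, was -1.47 (SE 0.44, edgeR unadjusted p = 0.00739, adjusted p = 0.9999). Cela1, an elastase, ran from 2.30 to 4.83 CPM. Ctrl (0.917 to 3.31 CPM) and Pnliprp1 (at most 1.02 CPM) were named after their values were seen. Of the 19 genes of the acinar list 6 have a row, and the list summed to 1106 to 8755 CPM, mostly from Zg16, which goblet cells also express. The part of acinar cells in the Clps values was not tested.

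**Figure D1:**
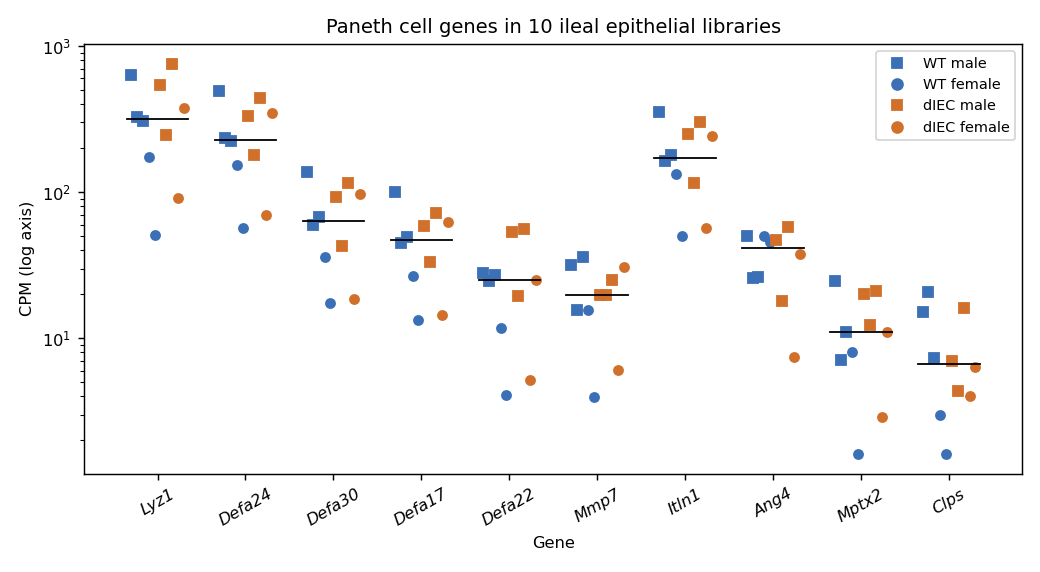
CPM of each gene on a log axis, 1 point per library (squares are males, circles are females, blue is WT, orange is dIEC), with a line at the median of the 10 libraries. The female libraries WT 10 and dIEC 7 lie at the bottom for most genes, and Ang4 in WT 10 (45.8 CPM) does not.

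Levels were compared between genes as CPM per kilobase of exon. Defa24 led with a median of 544, followed by Lyz1 (250), Defa30 (161), Itln1 (150) and Defa17 (119). Defa22 (59.4) and Ang4 (58.9) came next, then Mmp7 (18.5), Mptx2 (14.0) and Clps (10.9). The ranges over the 10 libraries overlapped for each pair of neighbours in this order. Together the 10 genes held from 0.0221% of all counts in WT 10 to 0.214% in WT 2.

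The question of the genotype comparison was whether the Paneth cell genes differ when epithelial H2-Ab1 is deleted. With edgeR's quasi-likelihood test and sex as a covariate, 0 of 10 genes were called at a Benjamini-Hochberg adjusted p under 0.05, where 0.016% of all 12477 genes were called (2 genes). None had an unadjusted p under 0.05, against 2.85% of all genes. Limma voom was run, here and below, with sample weights, so libraries did not count equally. It called 0 of 10, with 0.016% of all genes called. In that fit 1 of the 10, Mmp7 (-0.55, SE 0.23), had an unadjusted p under 0.05, against 19.1% of all genes. DESeq2 also called 0 of 10, with 0.0321% of all genes called. The fitted log2 difference, dIEC minus WT, was above 0 for 9 genes and below 0 for 1, with a median of 0.32 beside 0.01 over all genes. Defa22 had the highest value, 0.79 (SE 0.43), followed by Lyz1 with 0.59 (SE 0.49), and Ang4 had the lowest, -0.27 (SE 0.48). The adjusted p was 0.9999 for each. These values moved with single libraries: without dIEC 9, Defa22 was at 0.37 and Lyz1 at 0.12. Limma voom, with all libraries kept but weighted, gave 0.19 and 0.11. Without dIEC 7 or without dIEC 3, Defa22 was at 0.99 and 0.995, with unadjusted p-values of 0.0225 and 0.0377 and adjusted p-values above 0.999 by edgeR. No gene had WT and dIEC values without overlap, which was so for 0.176% of all genes with dIEC higher and 0.144% with dIEC lower.

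In males alone, 3 mice of each genotype, the log2 difference was below 0 for 6 genes that had been above it, among them Mmp7 (-0.39), Defa17 (-0.27) and Clps (-0.64), and Ang4 was at 0.24. The direction of the genotype difference therefore was not stable for these genes.

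Sex was the other factor in the labels. With genotype as a covariate, 0 of 10 genes were called between females and males by edgeR, where 0.0401% of all genes were called (5 genes), and limma voom also called 0, where it called 0.0481% of all genes. In limma voom 9 of 10 had an unadjusted p under 0.05, against 19% of all genes, and the lowest adjusted p was 0.188. DESeq2 called 0 as well, with 0.0721% of all genes called. Females had the lower fitted level for 10 of 10 genes, with a median log2 difference of -1.09 beside 0.04 over all genes. Unadjusted p-values under 0.05 came with 5 genes, against 4.44% of all genes in either direction and 1.89% with lower values in females. These were Defa22 (-1.61, SE 0.47), Clps (-1.63, SE 0.53), Lyz1 (-1.52, SE 0.52), Mptx2 (-1.43, SE 0.52) and Defa17 (-1.07, SE 0.47), each with an edgeR adjusted p of 0.9996. The lowest adjusted p in DESeq2 was 0.121, for Defa22. Males and females overlapped for 10 of 10 genes (all genes without overlap: 0.505% higher and 0.433% lower in females), since dIEC 9 lay within the male range for 10 of 10. Ang4 was close to level (-0.14, SE 0.49).

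WT 10 and dIEC 7, which were lowest in the crypt stem and proliferation lists, are 2 of the 4 females. Without them, edgeR called 0 of 10 genes between genotypes, with 0.0159% of all genes called, and 0 of 10 between the sexes, with 0.0317% called. In each comparison 1 of the 10, Defa22, had an unadjusted p under 0.05, against 3.51% and 27.4% of all genes. The female minus male differences were then nearer to 0 for the 9 genes other than Ang4. Mmp7 was at -0.064, Itln1 at -0.28, Defa24 at -0.38, Defa30 at -0.41 and Defa17 at -0.43. Mptx2 was at -0.74, Lyz1 at -0.83, Defa22 at -0.94, Clps at -1.21 and Ang4 at 0.25. Over all libraries the proliferation list differed by a median of -0.29 between females and males with 25 of 26 genes lower, and the crypt stem list by -0.25 with 16 of 18 lower. The goblet list differed by a median of -0.77 with 17 of 19 genes lower and 11 unadjusted p-values under 0.05, and edgeR and DESeq2 called 0 of them. Mean log2 CPM of the goblet list ran from 7.04 to 7.96 in males and from 5.96 to 6.90 in females. Enteroendocrine markers were lower in females for 17 of 17 genes (median -0.36), and tuft cell markers were higher for 11 of 11 (median 0.57), with 0 called by edgeR or DESeq2 and 0 and 2 unadjusted p-values under 0.05. The part of these cell types in the sex difference was not tested.

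**Figure D2:**
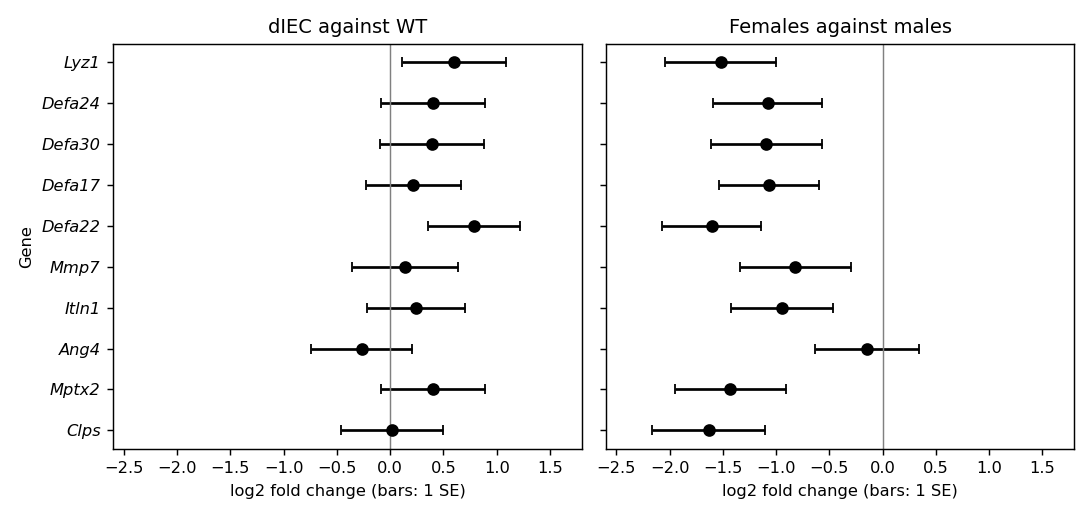
Fitted log2 fold change of each gene for dIEC against WT (left) and females against males (right), with bars of 1 SE from edgeR. The values on the left lie from -0.27 to 0.79 and those on the right from -1.63 to -0.14, and none passed the adjusted threshold.

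The product of sex and genotype, which asks whether the genotype difference depends on sex, called 0 of 10 genes, where 0.00801% of all genes were called (1 gene). By edgeR 0 of 10 had an unadjusted p under 0.05, against 2.1% of all genes. DESeq2, which called 0.152% of all genes, and limma voom, which called 0% of all genes, called 0 of 10. Unadjusted p-values under 0.05 in limma voom came with 0 of 10, against 0.793% of all genes. The widest values were 1.83 for Clps (SE 0.87) and -1.32 for Ang4 (SE 0.91), both with an adjusted p above 0.999, and they rest on 2 females per genotype.

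All 13 alpha-defensin rows were also summed into 1 row, a choice made after the data were seen. The sum may still miss shared reads or count them more than once, since their handling is not given. Some windows are also shared with alpha-defensin genes that have no row. The summed row differed by 0.40 (SE 0.49) between genotypes and by -1.15 (SE 0.52) between females and males, with edgeR adjusted p-values of 0.99998 and 0.9999.

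The members moved together from library to library. Pearson's r of log2 CPM over the 10 libraries had a median of 0.897 over the 45 pairs and ran from 0.168 to 0.996. In a permutation test with 100000 draws per pair, 35 pairs had a Benjamini-Hochberg adjusted p under 0.05, and 34 by Spearman's rho, whose median was 0.818. The closest pair was Defa17 and Defa30 (r = 0.996, rho = 1.0, permutation p = 1e-05, the smallest the draws can give, adjusted p = 5e-05, n = 10), 2 genes that share sequence. Lyz1 and Defa24, which lie on different chromosomes, gave r = 0.983 and rho = 0.976 (permutation p = 1e-05, adjusted p = 5e-05, n = 10). Pairs share the same 10 libraries and are not independent. The p-values of the named pairs are those of r. The share of all gene pairs that pass was not computed, so these counts do not set the members apart from other genes. With the crypt stem list, 8 of 10 members also passed by r (median r = 0.849) and 1 by rho. The part of crypt content in the co-variation was not tested.

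The co-variation was weaker without the 2 low females, though leaving out extreme libraries also narrows a gene's range, which can lower r by itself. In each pair, the 2 libraries farthest from the median of 1 gene, the one named first in the opening list, were left out. These were WT 10 and dIEC 7 for all pairs but 2, and the median r was then 0.688. Within the 6 males it was 0.758, and after the mean of each sex and genotype was subtracted it was 0.896. The Lyz1 and Defa24 pair kept r = 0.952 without those libraries, while Mmp7 and Defa22 went from 0.844 to 0.302.

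Ang4 (ENSMUSG00000060615; chr14:51763878-51773590), an angiogenin of the ribonuclease family with antimicrobial activity, stood apart. In WT it was 50.3, 25.8 and 26.3 CPM in males 2, 4 and 6 and 49.9 and 45.8 CPM in females 8 and 10. In dIEC it was 47.1, 18.1 and 57.5 CPM in males 1, 3 and 5 and 7.47 and 37.7 CPM in females 7 and 9. The WT females were thus among the 5 highest libraries for Ang4, although they were low for Lyz1. None of its 9 pairs passed (median r = 0.453). Expressed as a percentage of the Lyz1 count, Ang4 lay between 7.35% and 10.1% in 8 libraries, and was 28.9% in WT 8 and 90.4% in WT 10, where 511 Ang4 counts stood beside 565 Lyz1 counts. Without WT 8 and WT 10, left out after their values were seen, the median r of its pairs was 0.964. This difference between WT females and the other libraries was not tested, as the libraries were picked by it, and the interaction test above did not call Ang4.

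**Figure D3:**
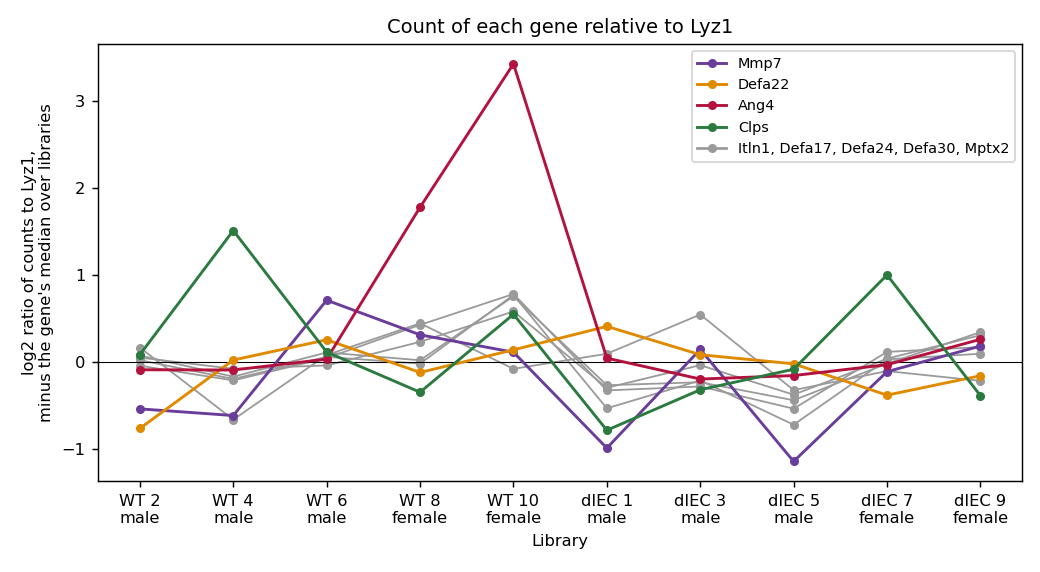
Log2 ratio of each gene's count to the Lyz1 count in each library (x axis), minus that gene's median over the 10 libraries (y axis); the coloured genes were picked after their values were seen. Ang4 lies near 0 in 8 libraries and above it in WT 8 and WT 10, which stand at 28.9% and 90.4% of the Lyz1 count.

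**Figure D4:**
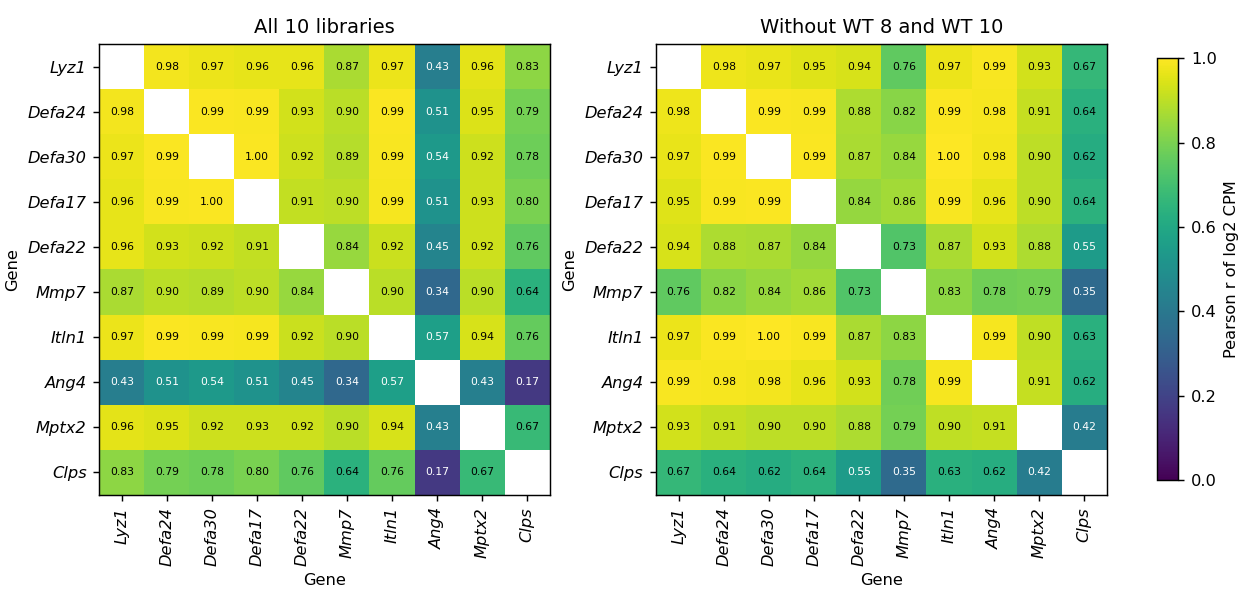
Pearson r of log2 CPM for each pair of genes over all 10 libraries (left) and without WT 8 and WT 10 (right), by colour and printed in each square. The Ang4 row has a median of 0.453 on the left and 0.964 on the right.

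Members were then set beside marker lists of crypt stem cells, proliferation, goblet cells and mature enterocytes, 40 relations in all. By r, 8, 6, 3 and 1 of the 10 members had an adjusted p under 0.05 with these lists. By rho the numbers were 1, 1, 1 and 0. The p-values below are those of r unless rho is named. Mmp7 followed the crypt stem list most closely (r = 0.922, rho = 0.903, permutation p = 0.00042, adjusted p = 0.0068, n = 10) and held r = 0.843 without the 2 farthest libraries. Its r with the proliferation list was 0.897 (rho = 0.867, permutation p = 0.00044, adjusted p = 0.0068, n = 10), and 0.787 without those libraries. For Lyz1 the r with the crypt stem list was 0.791 (permutation p = 0.00729, adjusted p = 0.0324, n = 10). It was 0.389 without WT 10 and dIEC 7, a step that also narrows the range of Lyz1. Within the 6 males it was 0.293, and after sex and genotype means were subtracted 0.759. The Lyz1 rho of 0.636 did not pass (permutation p of rho = 0.0553, adjusted p = 0.135). Clps followed the goblet list (r = 0.894, rho = 0.903, permutation p = 0.00051, adjusted p = 0.0068, n = 10). This r was 0.742 without WT 4 and WT 10, 0.686 within the 6 males, and 0.617 after sex and genotype means were subtracted. Lyz1 (r = 0.733, permutation adjusted p = 0.0354) and Defa22 (r = 0.740, permutation adjusted p = 0.0339) also passed with the goblet list by r, but not by rho. Within the 6 males their r was -0.028 and 0.083, and after sex and genotype means were subtracted it was 0.331 and 0.438. With proliferation Clps had r = 0.291 (rho = 0.236, permutation p = 0.411, adjusted p = 0.433, n = 10). Ang4 had r = -0.07 with the goblet list (rho = -0.03, permutation p = 0.848, adjusted p = 0.848, n = 10).

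**Figure D5:**
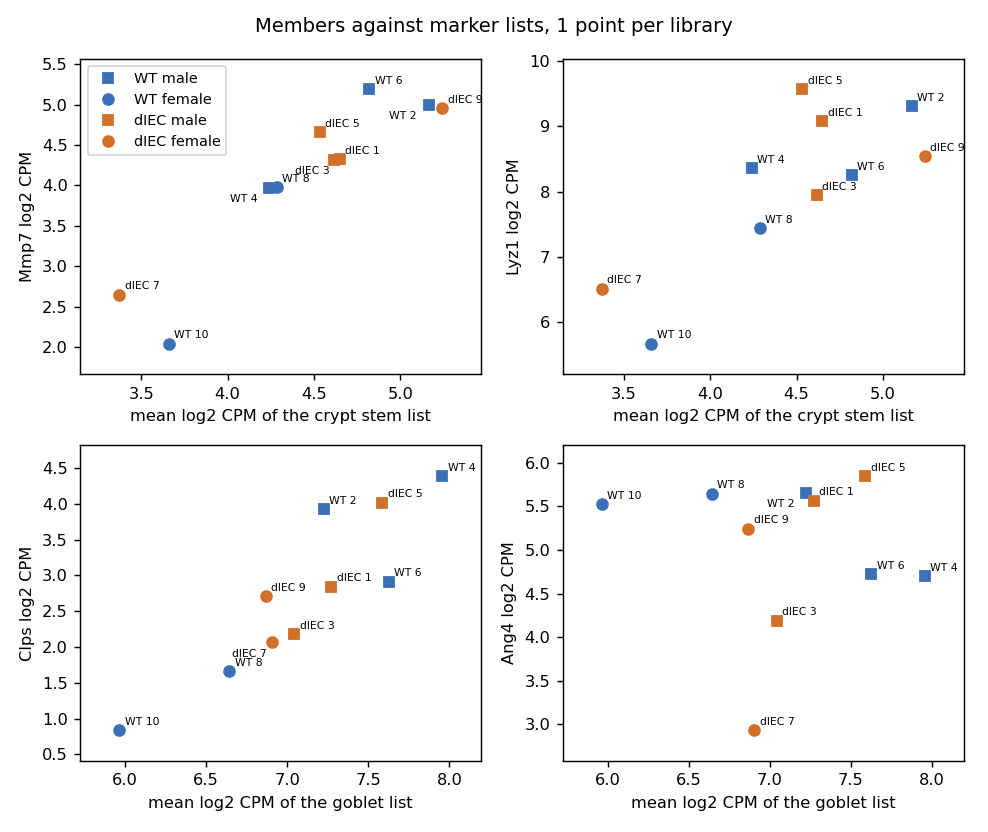
Log2 CPM of Mmp7, Lyz1, Clps and Ang4 (y axes) against the mean log2 CPM of a marker list (x axes), 1 labelled point per library; the genes shown were picked after their values were seen. Mmp7 and the crypt stem list had r = 0.922, Clps and the goblet list 0.894, and Ang4 and the goblet list -0.07.

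Among 12208 other genes with a mean of at least 1 CPM, the 10 most like the mean of the standardised members included the alpha-defensin genes Gm14851 (r = 0.984), Defa26 (0.946), Defa21 (0.944), Defa3 (0.938) and AY761184 (0.933). They also included Fxyd3 (0.950), an ion pump regulator, Lbh (0.940), Pla2g2a (0.937), a phospholipase of Paneth granules, and Ubxn2b (0.936). These r values are over 10 libraries and describe rank among genes only.

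Of the other alpha-defensin genes 9 have a row and 7 passed the filter, and edgeR and DESeq2 called 0 in any comparison. Between females and males 7 of 7 had lower fitted values, with a median of -1.21 and 3 unadjusted p-values under 0.05. AY761184 had the highest mean, 35.6 CPM, then Gm14851 (28.1) and Defa21 (24.7). A list of other secreted products, chosen as products of Paneth cells, was more mixed: 7 of 12 had lower fitted values in females (median -0.43). Reg3b and Reg3g, C-type lectins with antibacterial activity, averaged 2242 and 1508 CPM and differed by -0.85 (SE 0.37) and -1.0045 (SE 0.43), Guca2b, uroguanylin, by 0.18 (SE 0.27), and Reg3a by 0.31 (SE 0.28). EdgeR and DESeq2 called none of the 12, and 3 had an unadjusted p under 0.05. Guca2b was highest in dIEC 7 (1206 CPM) and WT 10 (1178 CPM), the libraries lowest for most members, and lowest in dIEC 9 (508 CPM). Whether this list stands for Paneth cells alone was not tested. Between genotypes the median log2 difference was 0.37 over the other alpha-defensins and -0.09 over the other secreted products, with 0 unadjusted p-values under 0.05 in either list.

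Of the regulators of Paneth cell fate, 14 of 19 had lower fitted values in females, with a median of -0.19. The 4 with the highest mean were Ctnnb1, beta-catenin (0.11, SE 0.15), Fzd5, a Wnt receptor (0.10, SE 0.12), Xbp1, a factor of the secretory stress response (0.17, SE 0.14), and Cd24a (-0.19, SE 0.45). The 4 with an unadjusted p under 0.05, named after their values were seen, had lower fitted values in females. They were Atoh1 (-1.02, SE 0.28), which sets the secretory lineage, Gfi1 (-0.77, SE 0.25) and Spdef (-0.68, SE 0.24), factors of secretory cell maturation, and Creb3l1 (-0.60, SE 0.26). Genes of the stem cell niche had a median of 0.04, with Dll1 at -0.03 (SE 0.26), Tgfa at 0.07 (SE 0.22), Dll4 at -0.49 (SE 0.28) and Ereg at 0.04 (SE 0.30). Genes of defensin processing and granule release, a list that includes Mmp7, had 6 of 12 lower and a median of 0.00, with Myo5b at 0.12 (SE 0.21) and Slc30a4 at 0.06 (SE 0.18). In these 3 lists edgeR called 0 genes for genotype or sex; unadjusted p-values under 0.05 between the sexes numbered 4 of 19, 0 of 7 and 2 of 12, and DESeq2 called 1 gene of the processing list, Rab27a (-1.22, SE 0.28 by edgeR), named after its values were seen.

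Promoters were compared because the members move together. RefSeq start sites on GRCm38.p6 gave an entry for 7 of the 10 genes (Defa17, Defa24 and Clps were not matched), and the 250 bases before the start were searched on both strands for 5 motifs. The TCF/LEF motif was searched as CTTTGAT and as CTTTGTT. The SOX motif was searched as ACAATG. The E-box was searched as CAGCTG. The TATA box was searched as TATAAA. No motif contains another. Shown 5′ to 3′ on the gene's strand are the 3 that held a match, with matches in capitals, and Ang4, the gene that stood apart, which held none.
Defa22 (chr8:21162027-21162276, plus strand): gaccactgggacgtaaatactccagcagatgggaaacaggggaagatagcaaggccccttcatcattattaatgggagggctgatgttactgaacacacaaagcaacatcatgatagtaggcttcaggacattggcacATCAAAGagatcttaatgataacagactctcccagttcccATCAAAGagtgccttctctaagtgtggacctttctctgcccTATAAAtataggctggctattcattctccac
Defa30 (chr8:21134400-21134649, plus strand): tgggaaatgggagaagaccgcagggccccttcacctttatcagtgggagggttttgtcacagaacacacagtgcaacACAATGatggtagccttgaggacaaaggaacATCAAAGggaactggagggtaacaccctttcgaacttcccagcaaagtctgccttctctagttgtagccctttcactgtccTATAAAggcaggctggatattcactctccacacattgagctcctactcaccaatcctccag
Mmp7 (chr9:7691840-7692089, plus strand): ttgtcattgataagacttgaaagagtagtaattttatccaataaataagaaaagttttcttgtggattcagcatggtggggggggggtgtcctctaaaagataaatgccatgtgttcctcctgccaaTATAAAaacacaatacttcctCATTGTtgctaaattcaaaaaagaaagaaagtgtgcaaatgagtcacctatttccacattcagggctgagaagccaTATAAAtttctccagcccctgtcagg
Ang4 (chr14:51773591-51773840, minus strand): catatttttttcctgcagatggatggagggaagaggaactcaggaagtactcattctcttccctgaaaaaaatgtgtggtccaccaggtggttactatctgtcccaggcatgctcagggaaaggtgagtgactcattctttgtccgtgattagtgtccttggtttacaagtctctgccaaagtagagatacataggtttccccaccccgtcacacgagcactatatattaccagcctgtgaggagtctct
The first TCF/LEF form, CTTTGAT, stands on the minus strand in each match and is therefore read in the capitals above as its reverse complement. It occurred 2 times before Defa22, from 112 and from 72 bases before the start, and 1 time before Defa30, from 142 bases. Mmp7 has another RefSeq start downstream of the first. The window of that start, which begins after the first start and is not printed, held 1 match, from 247 bases before it. Of 32851 promoters 3.21% hold it. TATAAA occurred before Defa22, Defa30 and Mmp7 (12.4% of all promoters) and ACAATG before Defa30 and Mmp7 (10.7%). The windows of Lyz1, Itln1, Mptx2 and Ang4 held none of the 5. The Defa22 and Defa30 windows were 60.7% identical, so their matches are not independent.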

How the data were processed

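Raw counts per gene were deposited by the authors. Per the submitters' processing notes, Novoalign and mm10 were used, and per the labels' protocols the libraries were stranded, with ribosomal RNA removed. How reads were assigned to genes, and with which use of strand, is not given in the sources used here. Tests used edgeR 4.0.16, limma 3.58.1 and DESeq2 1.42.0 in R 4.3.3, fitted on the whole table with sex and genotype and adjusted by Benjamini-Hochberg. EdgeR used TMM scaling and robust quasi-likelihood dispersion. Limma voom used TMM scaling and sample weights, and DESeq2 its own scaling and dispersion. SEs of edgeR were obtained as |log2 fold change| divided by √F, and the SE of limma voom came from its own fit. Library totals scaled by TMM gave CPM; a prior count of 2 went into log2 CPM. The low-count filter, edgeR's filterByExpr, was run with 3 groupings of the libraries: by the 4 sex and genotype cells, by the sex and genotype design, and by genotype. The last was kept, after member results under the second had been seen, because it gives the number of genes tested in an earlier account of these data. All 3 called 0 of the 10 genes in each comparison.

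The members, gene lists and tests were chosen with earlier results of these data known. Named genes were the members, H2-Ab1, up to 4 of highest mean CPM per Paneth list, up to 3 per marker list, and the 10 most like the members; other names are marked as chosen after values were seen, and the text gives part of those taken by the rule. The result of 1 gene taken by the rule is not reported here. Pairs of libraries within a group differed by more than sampling noise (chi-square per degree of freedom from 17.0 to 163). The p-values of the fits judge differences against the spread between these mice. Those of the correlations come from shuffling all 10 libraries, without regard to sex or genotype. Coding sequences stand in for the proteins that had been planned, which are not used here. Shared windows, the Ang4 percentage of Lyz1 and fits without WT 8, WT 10 or dIEC 7 were added after the data were seen. The fits were tested on simulated counts. Alternatives were other scalings, tests, filters, covariates and subsets of libraries.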

Additional observations from a re-analysis of the deposited data

Results flagged for a closer look

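Values lying far from the rest of their group, by Dixon's test at 95%, were found in 4 of 76 groups of members' values, where chance gives about 3.8 (about 1 in 20). Clps in dIEC 5 was 16.0 CPM, with the next dIEC library at 7.003 CPM. The log2 ratio of Defa17 to Lyz1 in WT 10 was -1.91, above the next WT library at -2.62 and the next female at -2.58; these 2 groups share WT 10. The log2 ratio of Defa22 to Lyz1 in WT 2 was -4.51, below the next male at -3.76.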

How the results depend on the processing

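No alternative called any of the 10 genes: 0 of 10 in 24 settings each for genotype and sex and 18 for the interaction. For sex the lowest edgeR adjusted p over the settings was 0.0756 (Mptx2), then 0.0763 (Defa22) and 0.0812 (Mmp7). The number of all genes called for genotype was 4 with DESeq2 and 0 in females only. For sex it was 9 with DESeq2, 466 of 12477 with the proliferation mean as covariate and 11 with the mature enterocyte mean. For the interaction it was 16 with DESeq2 and 0 with limma voom or library totals only. It was 0 to 1 when each library was left out. Both other groupings of the filter, added after the data were seen, gave 2, 5 and 1 genes called, as did the grouping used. The cause of these differences was not tested.

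Genotype log2 differences that changed sign were, with limma voom, Mmp7 -0.55, Itln1 -0.29, Defa17 -0.40, Defa24 -0.11, Defa30 -0.33 and Clps -0.45; in males only, Mmp7 -0.39, Itln1 -0.082, Defa17 -0.27, Defa24 -0.012, Defa30 -0.10, Clps -0.64 and Ang4 0.24; without sex as covariate, Mmp7 -0.018 and Clps -0.33; with the proliferation and enterocyte covariates, Clps -0.051 and -0.041. Without WT 10 and dIEC 7, chosen after the data were seen, Mmp7 was -0.059, Clps -0.27 and Ang4 0.076. For sex, Ang4 was 0.49 in WT only and 0.25 without WT 10 and dIEC 7; the other 9 genes stayed lower in females in all 24 settings, but the size varied, as for Mmp7 (-2.13 to -0.064), Itln1 (-1.60 to -0.28), Defa24 (-1.81 to -0.38) and Lyz1 (-2.22 to -0.83). Leaving out each library in turn changed signs too. The genotype ranges were Ang4 -0.52 to 0.077, Clps -0.27 to 0.33, Defa17 -0.31 to 0.54, Defa24 -0.17 to 0.71, Defa30 -0.21 to 0.72, Itln1 -0.25 to 0.52, Mmp7 -0.46 to 0.33, Lyz1 0.12 to 0.87, Defa22 0.37 to 1.011 and Mptx2 0.051 to 0.77. The sex ranges were Ang4 -0.34 to 0.26, Mmp7 -1.62 to -0.44, Itln1 -1.57 to -0.66, Defa17 -1.78 to -0.78, Defa24 -1.81 to -0.77, Defa30 -1.89 to -0.80, Mptx2 -1.90 to -1.12, Lyz1 -2.13 to -1.20, Defa22 -2.17 to -1.32 and Clps -2.04 to -1.29. For Mmp7 the ends were reached without dIEC 9 and without WT 10. The interaction ranges were Defa17 -0.22 to 1.89, Defa22 -1.32 to 1.27, Defa24 -0.58 to 1.96, Defa30 -0.46 to 1.94, Itln1 -0.63 to 1.73, Lyz1 -0.59 to 1.99, Mmp7 -0.31 to 2.70 and Mptx2 -1.07 to 1.90. The median r of the pairs was 0.688 to 0.919 across its other settings and 0.856 to 0.923 when each library was left out. No paired analysis was possible because no mouse number is shared between the groups. Low counts, such as 18 for Mptx2 and Clps in WT 10, limit single values.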
